A study of Mus musculus with 16 samples.

Results

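What a lipid load did to gene expression in mouse hepatocytes that were at the same time exposed to itaconate was taken from 8 of the 16 RNA-seq libraries of the study. These were the 4 libraries of hepatocytes treated with lipid + itaconate and the 4 treated with itaconate alone, chosen by their labels and compared across all genes. Of 55450 genes quantified, the 11675 whose mean over the 16 libraries reached 1 CPM (counts scaled to library size) were tested. All 4 groups were primary hepatocytes isolated from wild-type male C57BL/6J mice (young adults, per the study's methods) and cultured overnight in medium with serum and insulin-transferrin-selenium. Itaconate-treated cells received 10 mM sodium itaconate. Lipid + itaconate-treated cells received the same plus a defined mixture of lipids, diluted 10-fold. Per the labels the mixture holds arachidonic acid at 2 µg/ml, linoleic, myristic, oleic, palmitic and stearic acid at 10 µg/ml each, and cholesterol at 0.22 mg/ml. The labels do not say whether this is before or after the dilution. The study's methods list these values as the contents of the mixture that was then diluted. The other groups, untreated and lipid-treated cells, served for the lipid effect without itaconate. Replicates carry the letters A to D, each with 1 library of every group. The labels do not say whether a letter is an animal, a culture or a sequencing batch, so p-values measure the spread between these libraries, which may be technical. The cells had been purified by low-speed centrifugation.

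Itaconate is made from the citric acid cycle intermediate cis-aconitate, chiefly in activated macrophages. Hepatocytes sense lipid in several ways. Sterols hold the transcription factor SREBP2 in the endoplasmic reticulum, so that genes for cholesterol synthesis and LDL uptake are transcribed less, and oxysterols activate the receptor LXR. Fatty acids are ligands of the receptor PPAR alpha, which drives genes of fatty acid oxidation, and polyunsaturated fatty acids lower the activity of SREBP1, which drives lipogenic genes.

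Total expected counts ran from 27211869 to 35512004 with itaconate alone and from 25812579 to 35378517 with lipid + itaconate (exact permutation test, two-sided p = 0.657; with 4 against 4 the smallest p is 0.0286). Albumin (Alb) stood at 44605, 35805, 30556 and 32599.5 CPM with itaconate alone and 41334, 34019, 24243 and 28366 CPM with lipid + itaconate, and all 27 listed hepatocyte markers found in the data had counts. Markers listed for other cells had counts too. The 15 endothelial markers summed to 29.0 to 45.4 CPM with itaconate alone and 32.6 to 50.3 CPM with lipid + itaconate. The 16 stellate cell and fibroblast markers summed to 23.0 to 27.6 and 17.7 to 23.97 CPM (Acta2 had no count). Of this, Reln alone made up 20.6 to 24.3 and 15.4 to 22.1 CPM, and 14 of the 16 averaged under 1 CPM. The 16 neutrophil and lymphocyte markers summed to 0.490 to 0.663 and 0.347 to 0.456 CPM (Ly6g and Nkg7 had no count). The 11 cholangiocyte markers summed to 589 to 1062 and 366 to 656 CPM, most of it from Spp1 and Sox9, while Krt7 was listed at 0 in 7 of the 8 libraries and Cftr had no count. Macrophage markers summed to 174 to 263 and 222 to 328 CPM. One library stood apart in a measure that a few abundant genes can carry. Lipid + itaconate replicate B differed from the other 3 of its group by 94.9 to 130.5 times counting noise (mean chi-square per gene). The other pairs of the 2 groups gave 13.2 to 57.0. Over all genes tested the log2 change with lipid under itaconate had an SD of 0.449, 0.453, 0.494 and 0.422 in letters A to D. In lipid + itaconate replicate B, Gm42418 reached 37019 CPM and Lars2, a mitochondrial leucyl-tRNA synthetase, 4267 CPM. The other 7 libraries held 1171 to 2522 and 151 to 290 CPM. Neither gene was called (adjusted p = 0.239 and 0.186). These genes were picked after their values were seen. Mitochondrial transcripts made up 4.16 ± 0.618% of counts (SD, n = 4) with itaconate alone and 4.77 ± 0.932% with lipid + itaconate (exact permutation test, two-sided p = 0.371).

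Lipid altered the expression of 5483 genes in itaconate-treated hepatocytes, 47.0% of those tested (edgeR's quasi-likelihood test with the letter as a block, Benjamini-Hochberg adjusted p under 0.05). In this fit they divided almost evenly, with 2740 higher (23.5%) and 2743 lower (23.5%). Normalization sets where no change lies, and the split moved with the settings. It was 2584 higher and 2919 lower with RLE normalization, 2515 and 2893 with DESeq2, and 2107 and 1883 without the letter in the model. Most changes were small. The median absolute log2 change of the called genes was 0.32, 563 genes (4.82%) rose and 460 (3.94%) fell by at least 1.5-fold, and 125 rose and 107 fell by at least 2-fold. All 4 letters pointed 1 way for 5104 of the called genes (93.1%), and the 4 and 4 libraries did not overlap for 3668 genes (31.4% of those tested). Without replicate B of lipid + itaconate 5293 genes were called, 4908 of them among the 5483, and none of these had the other direction. Over all genes tested the median log2 change was 0.0041, with a background of 23.5% in each direction beside the lists below. Both the centre and the background differ with expression level, as given next.

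Direction went with expression level. Among genes with a mean of 500 CPM or more over the 8 libraries, 104 of 225 fell and 18 rose, whereas among genes of 5 to 50 CPM 1065 of 5677 fell and 1674 rose. Genes of 50 to 500 CPM took the same side as the abundant ones, with 1309 of 3713 lower and 594 higher. Below 5 CPM, 454 rose and 265 fell of 2060. The median log2 change moved from 0.090 under 5 CPM to −0.14 at 500 CPM or more. For lists of abundant genes 23.5% thus understates the falls, and overstates the rises, of genes at their level. The lists were not compared with genes matched for level. Of the 347 long non-coding RNA genes tested 93 fell and 32 rose (median −0.17), while the 11036 protein-coding genes split into 2690 higher and 2619 lower (median 0.0073).

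**Figure D1:**
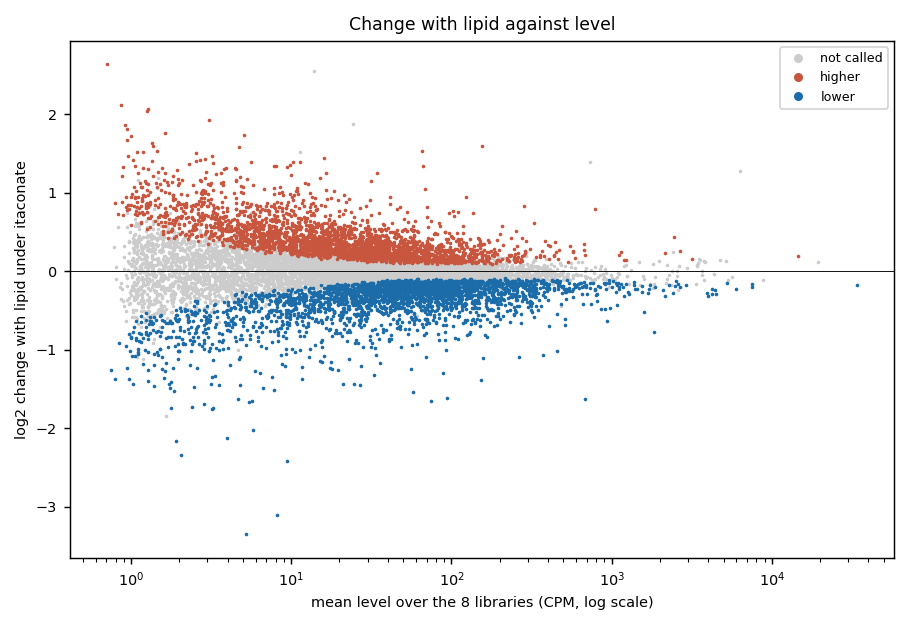
Log2 change with lipid under itaconate (vertical axis) against mean level over the 8 libraries in CPM (horizontal axis, log scale), 1 point per gene tested, coloured by whether it was called higher, lower or not. At 500 CPM or more 104 genes are called lower and 18 higher.

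The largest falls among genes of at least 5 CPM were in genes of several unrelated kinds. Prelp, a leucine-rich proteoglycan of connective tissue (GRCm38 chr1:133910304-133921414, minus strand), had 15.4, 5.29, 9.34 and 8.24 CPM with itaconate alone and 1.54, 0.732, 1.02 and 0.412 CPM with lipid + itaconate (log2 change −3.35 ± 0.200 (SE), adjusted p = 1.77e-08). Ivl, which encodes the cornified envelope protein involucrin, had 8.88, 13.1, 15.7 and 20.6 CPM with itaconate alone and 0.512, 1.502, 2.202 and 3.00 CPM with lipid + itaconate (log2 change −3.10 ± 0.209 (SE), adjusted p = 5.54e-08). For neither gene did any library with lipid reach the lowest library without it. Sprr1a, another cornified envelope gene and by far the most abundant of this set, had 982, 1049.5, 992 and 1089 CPM with itaconate alone and 374, 312, 279 and 371 CPM with lipid + itaconate (log2 change −1.63 ± 0.0887 (SE), adjusted p = 6.83e-09). A pair of retinoid genes fell alongside, the receptor Rarb (8.60 ± 1.33 to 2.74 ± 0.532 CPM, mean ± SD, n = 4; log2 change −1.65) and Cyp26a1, the enzyme that clears retinoic acid (85.5 ± 7.30 to 29.96 ± 5.54 CPM; −1.53). Also among the 12 largest falls were the neutrophil chemokine Cxcl2 (−2.42), the monocyte chemokine Ccl2 (−1.65), the neutral sphingomyelinase Smpd3 (−1.67), the matricellular protein Thbs1 (−1.52), the interferon-induced Oasl2 (−1.49) and the macrophage pore-former Mpeg1 (−1.45). Adjusted p in the same fit was 1.15e-04 or lower for all 12.

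Rises were smaller in size than the deepest falls. Hspa1b, an inducible HSP70 chaperone (GRCm38 chr17:34956436-34959238, minus strand), led them with 92.5, 60.1, 68.3 and 83.1 CPM with itaconate alone and 268, 162, 216 and 282 CPM with lipid + itaconate (log2 change 1.60 ± 0.0682 (SE), adjusted p = 6.66e-10). Txnip, an arrestin that limits glucose uptake and binds thioredoxin, had 39.6, 35.6, 29.7 and 27.4 CPM with itaconate alone and 144, 118, 60.7 and 71.2 CPM with lipid + itaconate (log2 change 1.53 ± 0.161 (SE), adjusted p = 2.90e-06), with the 4 lipid libraries spread over a wider range than the 4 without. Nt5e, the ectonucleotidase CD73, went from 6.50 ± 2.91 to 16.2 ± 2.69 CPM (1.39), and Inhbe, which encodes the hepatokine activin E, from 3.15 ± 1.33 to 8.08 ± 2.02 CPM (1.39). Smo, the Hedgehog signal transducer, rose from 5.64 ± 1.14 to 14.7 ± 1.53 CPM (1.39). Further rises were in the small GTPase Arl4d (1.35), the transporter family member Mfsd13a (1.35), the zinc finger gene Zfp52 (1.34), the prostaglandin reductase Ptgr1 (1.33), the histocompatibility pseudogene H2-T-ps (1.26), the Polycomb gene Cbx2 (1.25) and the myosin light chain gene Myl12b (1.34; ENSMUSG00000034868.9). A second identifier carries the symbol Myl12b, so reads may be split between them, and Hspa1b and Hspa1a are near-identical copies whose reads RSEM shares out. Reads of other close families named below (Orm, Saa, Ifit3, Cyp2c and Cyp4a) can be split in the same way.

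Most genes of cholesterol synthesis fell. Of the 20 enzymes tested, 15 fell and 1 rose, with a median log2 change of −0.50. Idi1, isopentenyl-diphosphate isomerase, had 120.2, 94.5, 64.1 and 100.3 CPM with itaconate alone and 46.7, 39.5, 43.2 and 44.4 CPM with lipid + itaconate (log2 change −1.09 ± 0.102 (SE), adjusted p = 1.09e-06), and every lipid library lay below every library without lipid. Hmgcs1, the cytosolic HMG-CoA synthase, had 257, 211, 153 and 211 CPM with itaconate alone and 119, 109.8, 116 and 123 CPM with lipid + itaconate (log2 change −0.81 ± 0.0842 (SE), adjusted p = 2.58e-06), again without overlap. Lanosterol synthase (Lss) had 56.1, 45.9, 34.7 and 45.2 CPM with itaconate alone and 24.7, 21.7, 25.7 and 27.2 CPM with lipid + itaconate (log2 change −0.86 ± 0.0919 (SE), adjusted p = 3.50e-06). The sterol dehydrogenase Nsdhl (−0.66), farnesyl diphosphate synthase Fdps (−0.54), squalene synthase Fdft1 (−0.59) and lanosterol demethylase Cyp51 (−0.65) fell as well. Not every step followed. Sqle, squalene epoxidase, had 149, 121, 125 and 132 CPM with itaconate alone and 128, 138, 128 and 138 CPM with lipid + itaconate (log2 change 0.017 ± 0.0911 (SE), adjusted p = 0.892). It did not pass the test, nor did Ebp and Sc5d. Dhcr7, which makes the last reduction to cholesterol, rose instead (80.6, 58.0, 36.7 and 60.6 CPM with itaconate alone and 86.0, 71.1, 89.0 and 89.6 CPM with lipid + itaconate; log2 change 0.56 ± 0.126 (SE), adjusted p = 0.00201), with the 2 ranges overlapping. Letter by letter, the list's median log2 change was −0.75, −0.60, −0.20 and −0.33 in A to D.

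**Figure D2:**
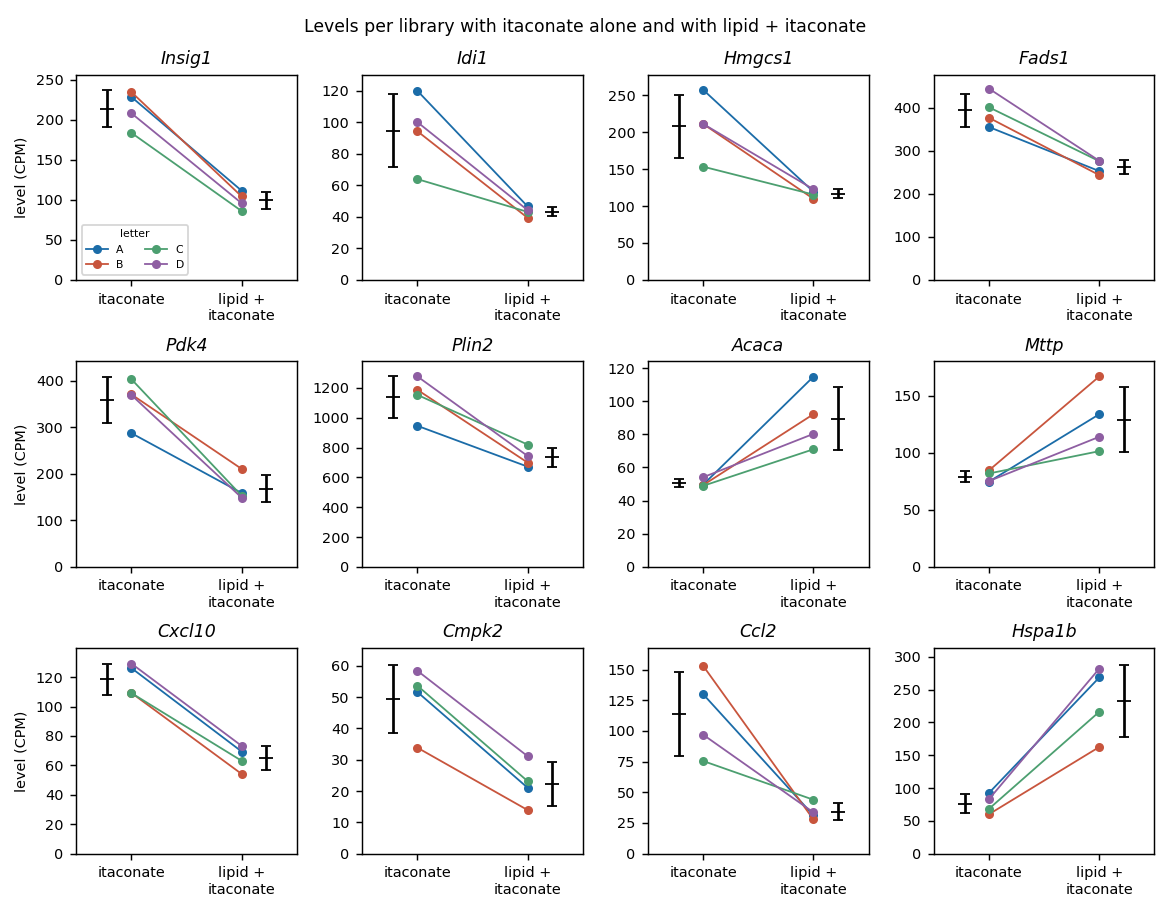
Level in CPM (vertical axes, from 0) of 12 genes in each library with itaconate alone and with lipid + itaconate; lines join libraries of 1 letter, and the black bars beside them give the mean ± SD of 4 libraries. In Insig1, Idi1, Hmgcs1, Fads1, Pdk4, Plin2, Cxcl10, Cmpk2 and Ccl2 every lipid library lies below every library without lipid, and in Acaca, Mttp and Hspa1b every one lies above.

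Promoter windows were read for the genes that carry this result, to show the sequence next to the response. A window runs from 250 bases before to 50 bases after the start of a gene (RefSeq, GRCm38.p6), and 15 of the 20 genes had one. The sterol response element was searched as TCACNCCAC and the NF-Y box as CCAAT, on both strands. Among the 15 only Hmgcs1 held the first, which 1.5% of the 8991 tested genes with a window held (1.24% of all 32851 windows). The second was held by 14 of 15, all but Acat2, against 43.4% of those tested genes (37.4% of all windows). Dhcr7, which rose, held it too, and no window for Sqle, Fdps and Fdft1, among others, was at hand. Stretches around the matches are given 5′ to 3′ on the strand of the gene, with the matched letters in capitals, at chr13:119690101-119690395, plus strand for Hmgcs1, chr13:8885531-8885626, plus strand for Idi1 and chrX:72918382-72918570, plus strand for Nsdhl. A match is a string of letters and was not tested as a binding site.
Hmgcs1: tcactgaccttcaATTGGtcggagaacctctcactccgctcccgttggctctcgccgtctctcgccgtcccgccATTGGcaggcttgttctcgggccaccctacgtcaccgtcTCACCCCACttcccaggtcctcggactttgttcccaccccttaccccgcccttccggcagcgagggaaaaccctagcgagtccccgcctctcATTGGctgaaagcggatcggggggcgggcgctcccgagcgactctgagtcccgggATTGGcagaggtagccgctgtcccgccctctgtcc
Idi1: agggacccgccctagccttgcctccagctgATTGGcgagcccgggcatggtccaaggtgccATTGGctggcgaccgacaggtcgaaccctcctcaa
Nsdhl: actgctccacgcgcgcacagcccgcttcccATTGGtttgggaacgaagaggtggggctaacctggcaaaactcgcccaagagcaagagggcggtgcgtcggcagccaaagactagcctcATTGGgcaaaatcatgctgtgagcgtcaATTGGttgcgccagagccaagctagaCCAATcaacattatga

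Sterol sensing and LDL uptake gave the same picture in part. Insig1, which retains SREBP2 and is itself its target, had 229, 235, 184 and 208 CPM with itaconate alone and 111, 104, 86.0 and 95.8 CPM with lipid + itaconate (log2 change −1.10 ± 0.0645 (SE), adjusted p = 1.47e-08), and the groups did not overlap. Srebf2 itself (−0.30) and the sterol carrier Stard4 (−0.42) also fell, and 6 of 13 members, Hmgcs1 included, were lower and none higher (median −0.079); Scap, Insig2, Npc1 and Npc2 were among the 7 that did not pass. The list of LXR targets and sterol efflux, which also holds the LXR genes Nr1h3 and Nr1h2, did not rise as a group. Of its members 7 of 12 were lower and 1 higher (median −0.23), and Abcg1 and Mylip were below the level tested. The cholesterol exporter Abca1 fell from 159 ± 17.05 to 123 ± 4.99 CPM (−0.36), and the sterol transporters Abcg5 (−0.61) and Abcg8 (−0.88) and the lipogenic regulator Srebf1 (−0.55) were lower too, while Lpcat3, which puts polyunsaturated chains into phospholipids, rose (0.42). Bile acid genes divided into 8 lower and 2 higher of 18 (without the letter in the model 3 were lower). Cyp8b1, the 12-alpha-hydroxylase of bile acid synthesis, had 10.4, 9.46, 7.00 and 7.93 CPM with itaconate alone and 23.1, 18.6, 12.6 and 15.7 CPM with lipid + itaconate (log2 change 0.99 ± 0.0835 (SE), adjusted p = 4.37e-07), and the exporter Abcc3 rose (0.38), while the uptake carriers Slco1b2 (−0.62) and Slc10a1 (−0.39) and the bile acid receptor Nr1h4 (−0.41) and exporter Abcc2 (−0.42) fell. Cyp7a1, the rate-limiting enzyme, was below the level tested.

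Among enzymes that make, desaturate and store fatty acids more fell than rose, with Acaca as the largest rise. Acaca, acetyl-CoA carboxylase 1, had 49.6, 49.3, 48.9 and 54.1 CPM with itaconate alone and 115, 92.2, 71.0 and 80.3 CPM with lipid + itaconate (log2 change 0.82 ± 0.102 (SE), adjusted p = 1.41e-05), without overlap. Fatty acid synthase (Fasn) fell from 202 ± 10.5 to 158 ± 13.9 CPM (−0.36), as did the other carboxylase, Acacb (−0.39). In the lipogenesis list 8 of 17 fell and 4 rose (median −0.15; 4 fell without the letter in the model), the other rises being Mid1ip1 (0.26), Aacs (0.33) and the citrate carrier Slc25a1 (0.14). Every desaturase called was lower. Fads1, the delta-5 desaturase, had 355, 377, 401 and 445 CPM with itaconate alone and 253, 244, 276 and 277 CPM with lipid + itaconate (log2 change −0.59 ± 0.0552 (SE), adjusted p = 1.17e-06), Fads2, the delta-6 desaturase, 355, 386, 414 and 390.2 CPM with itaconate alone and 291, 278, 284 and 286 CPM with lipid + itaconate (log2 change −0.44 ± 0.04998 (SE), adjusted p = 6.51e-06), and Scd2 went from 7.06 ± 2.02 to 2.27 ± 0.481 CPM (−1.62). The elongation dehydratase Hacd1 fell too (−0.52). Scd1, the main hepatic stearoyl-CoA desaturase, had 5438, 5727, 3324 and 3768 CPM with itaconate alone and 4808, 5455, 2412 and 2683 CPM with lipid + itaconate (log2 change −0.29 ± 0.0766 (SE), adjusted p = 0.00555); its groups overlapped, with letters A and B above C and D with and without lipid, and it was not called without the letter in the model. Of 16 desaturation and elongation genes 8 fell and none rose (5 without the letter in the model), and Elovl5 (0.034), Elovl2 (−0.053) and Elovl6 (0.015) did not pass.

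Triglyceride synthesis showed 9 of 12 genes lower and none higher (median −0.23). The phosphatidate phosphatase Lpin1 fell from 60.1 ± 5.97 to 38.5 ± 7.26 CPM (−0.65), and the acyltransferases Gpam (−0.44), Dgat2 (−0.44) and Agpat2 (−0.37) were also lower. Around the lipid droplet 6 of 18 genes fell and 4 rose. Plin2, the main droplet coat protein of hepatocytes, had 946, 1188, 1154 and 1278 CPM with itaconate alone and 672, 699.8, 820.4 and 744 CPM with lipid + itaconate (log2 change −0.63 ± 0.0829 (SE), adjusted p = 2.30e-05), with no overlap. Plin4 (−0.54), the lipase Pnpla2 (−0.47) and the lipase inhibitor Hilpda (−0.31) fell too, and G0s2 (0.54), which acts likewise, Cidec (0.33), Plin3 (0.19) and Hsd17b13 (0.15) rose. Without the letter in the model 1 of these 4 rises was called.

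Transcripts of fatty acid oxidation, the route that PPAR alpha opens, were lower at many steps. Oxidation itself is not measured by RNA levels. Mitochondrial beta-oxidation had 15 of 21 genes lower and 1 higher (median −0.26). Cpt1a, the carnitine transferase that admits fatty acids to mitochondria, had 38.1, 30.01, 33.2 and 36.3 CPM with itaconate alone and 25.4, 23.4, 26.4 and 25.03 CPM with lipid + itaconate (log2 change −0.46 ± 0.0920 (SE), adjusted p = 9.31e-04), the long-chain dehydrogenase Acadl a change of −0.41 and the trifunctional subunit Hadha of −0.34, and the isomerase Eci2 (−0.49) and the dehydrogenase Acad11 (−0.42) fell alike, while the short-chain dehydrogenase Acads rose (0.21). In peroxisomes 11 of 19 fell and 3 rose (7 fell without the letter in the model), with Acox2 (−0.74), Ehhadh (−0.65) and Crot (−0.52) among those lower. In a list of PPAR alpha, its partners and listed targets 16 of 30 were lower and 3 higher (median −0.27). Pdk4, the kinase that shuts pyruvate dehydrogenase, had 287, 370.2, 403 and 369 CPM with itaconate alone and 158, 210.2, 153 and 148 CPM with lipid + itaconate (log2 change −1.09 ± 0.0856 (SE), adjusted p = 2.48e-07), and the lipase inhibitor Angptl4 had 129.7, 152, 127 and 133 CPM with itaconate alone and 89.3, 73.8, 69.7 and 67.5 CPM with lipid + itaconate (log2 change −0.85 ± 0.0713 (SE), adjusted p = 4.10e-07). Creb3l3, a membrane-bound liver transcription factor, moved the other way with 82.7, 95.5, 86.4 and 73.8 CPM with itaconate alone and 167, 179.9, 159 and 146 CPM with lipid + itaconate (log2 change 0.95 ± 0.0365 (SE), adjusted p = 2.74e-10). In all 3 the groups were apart. Txnip and Cidec were the other rises. Ppara had 5.74 ± 1.15 to 6.72 ± 1.27 CPM (log2 change 0.22 ± 0.157 (SE), adjusted p = 0.259) and did not pass.

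Transcripts for uptake and activation of fatty acids followed the same direction, with 13 of 21 lower and none higher (median −0.31; 5 lower without the letter in the model). Lpl, lipoprotein lipase, had 9.94, 11.7, 12.7 and 9.05 CPM with itaconate alone and 4.44, 4.93, 4.23 and 3.41 CPM with lipid + itaconate (log2 change −1.35 ± 0.107 (SE), adjusted p = 2.65e-07). Acsl1, the main acyl-CoA synthetase of liver, had 64.3, 54.9, 57.4 and 58.4 CPM with itaconate alone and 39.0, 39.8, 30.04 and 35.1 CPM with lipid + itaconate (log2 change −0.71 ± 0.0644 (SE), adjusted p = 8.17e-07). The groups did not overlap for either. The fatty acid translocase Cd36 (−0.52), the binding proteins Fabp1 (−0.42) and Dbi (−0.39) and the synthetase Acsl4 (−0.40) fell as well. Of 10 ketone body genes 3 fell and 1 rose, with Bdh1 (−0.32) and Slc16a7 (−0.35) lower and the exporter Slc16a6 higher (0.35). Without the letter in the model 1 of these ketone genes was lower and none higher.

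Lipoprotein assembly held rises as well as falls. Mttp, the microsomal transfer protein that loads apolipoprotein B with lipid, had 74.7, 84.6, 81.8 and 75.2 CPM with itaconate alone and 134, 167, 101.4 and 114 CPM with lipid + itaconate (log2 change 0.70 ± 0.102 (SE), adjusted p = 6.35e-05). Apoa5 had 107, 85.6, 92.1 and 91.4 CPM with itaconate alone and 160.4, 153, 117 and 135 CPM with lipid + itaconate (log2 change 0.58 ± 0.0693 (SE), adjusted p = 9.65e-06), and Tm6sf2 (0.58) and Apoa4 (0.28) also rose. The other called members fell, 9 of 23 in all (5 without the letter in the model), including Apobec1, which edits Apob mRNA (−0.51), Apob itself (−0.23), Apof (−0.31), Apoa2 (−0.27) and Apoe (−0.20).

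In glucose metabolism rises and falls stood side by side. Of 30 genes 10 rose and 7 fell (6 rose without the letter in the model). Pck1, the gluconeogenic carboxykinase, had 55.8, 26.1, 44.2 and 35.997 CPM with itaconate alone and 29.4, 23.0, 15.1 and 18.6 CPM with lipid + itaconate (log2 change −0.88 ± 0.170 (SE), adjusted p = 6.70e-04), and its mitochondrial counterpart Pck2 rose (0.63), as did Aldoc (0.81). Pyruvate carboxylase Pcx (−0.32), Ldha (−0.31), Pgk1 (−0.18) and the activator Pfkfb3 (−0.64) fell. Of 24 genes of the citric acid cycle and itaconate catabolism 5 fell and 4 rose, 2 of these rises being called without the letter in the model, among them cytosolic Idh1 (−0.49) and Aco1 (−0.42) and the succinyl-CoA ligase subunit Suclg2 (−0.33) below and mitochondrial Idh2 (0.29) above. Sugct (−0.25), Clybl (0.12) and Auh (−0.0095), which handle itaconate or its products, did not pass, and Acod1, which makes itaconate, was below the level tested. Respiratory chain subunits encoded in the nucleus were 10 lower and 5 higher of 75 (6 and 2 without the letter in the model), for instance Ndufa8 (0.31) and Ndufc2 (0.26) above and Cox6a1 (−0.19) and Ndufs8 (−0.21) below. Of 15 mitochondrial transcripts mt-Nd5 (0.43) and mt-Nd6 (0.40) were called, neither of them without the letter in the model, and mt-Nd1 (0.15) and mt-Rnr1 (0.25) did not pass.

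Interferon-induced genes, which an antiviral signal switches on, and inflammatory genes were mostly lower in lipid + itaconate-treated hepatocytes. Of 42 interferon-response genes 36 fell and none rose, with a median of −0.51, and of 25 inflammatory genes 22 fell and none rose, with a median of −0.62. Cmpk2, a mitochondrial kinase induced by interferon, had 51.6, 33.9, 53.7 and 58.4 CPM with itaconate alone and 21.1, 13.9, 23.2 and 31.1 CPM with lipid + itaconate (log2 change −1.17 ± 0.0632 (SE), adjusted p = 6.83e-09). The GTPase Irgm2 had 154, 127, 181 and 196 CPM with itaconate alone and 82.8, 70.1, 115 and 111 CPM with lipid + itaconate (log2 change −0.80 ± 0.0692 (SE), adjusted p = 5.26e-07). Both were apart between the groups, with letter B lowest on each side. Ifi44 (−1.43), Ifit3 (−1.12), the ubiquitin-like Isg15 (−0.47), Irgm1 (−0.62) and Oasl1 (−0.50) fell as well. Antigen-processing members did not pass, with Psmb8 at 0.04, Psmb9 at 0.23 and Tap1 at 0.034, nor did Bst2 (−0.066), Dhx58 (−0.084) and Oas3 (−0.91). Without the letter in the model 21 interferon genes were called, and without replicate B of lipid + itaconate 35. Per letter the interferon median was −0.69, −0.55, −0.32 and −0.47 in A to D, and the inflammatory median −0.72, −0.62, −0.55 and −0.55.

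Chemokines were among the deepest inflammatory falls. Cxcl10, which recruits T cells, had 126, 109, 109 and 129 CPM with itaconate alone and 69.4, 54.2, 63.1 and 73.2 CPM with lipid + itaconate (log2 change −0.87 ± 0.0464 (SE), adjusted p = 6.83e-09). For Ccl2 the values were 129.9, 153, 75.5 and 96.9 CPM with itaconate alone and 31.2, 27.9, 43.9 and 33.6 CPM with lipid + itaconate (log2 change −1.65 ± 0.225 (SE), adjusted p = 3.29e-05), and for Cxcl2 18.9, 19.6, 12.8 and 12.3 CPM with itaconate alone and 3.36, 3.85, 3.62 and 1.24 CPM with lipid + itaconate (log2 change −2.42 ± 0.191 (SE), adjusted p = 2.53e-07). The interleukin-1 receptor Il1r1 had 107, 106, 166 and 129 CPM with itaconate alone and 51.0, 42.3, 58.4 and 53.4 CPM with lipid + itaconate (log2 change −1.30 ± 0.0911 (SE), adjusted p = 8.20e-08). No lipid library reached the level of any library without lipid in these 4 genes. The feedback inhibitors of NF-kB Nfkbia (−0.63) and Tnfaip3 (−0.86) fell in parallel, as did Nfkbiz (−0.96). Among acute phase proteins, which hepatocytes secrete, 12 of 26 fell and 2 rose (4 fell without the letter in the model, and 18 without replicate B of lipid + itaconate). Of all tested genes at 500 CPM or more, 104 of 225 fell and 18 rose. Neither this list nor the complement list below was matched for level, so their counts do not show a fall beyond that of abundant genes. Saa3 had 147, 126, 106 and 116 CPM with itaconate alone and 68.7, 65.9, 57.7 and 54.3 CPM with lipid + itaconate (log2 change −1.01 ± 0.0664 (SE), adjusted p = 4.21e-08), ceruloplasmin (Cp) fell from 2345 ± 271 to 1356 ± 164 CPM (−0.78) and Crp changed by −0.66 and Apcs by −0.62, while Orm2 (0.43) and Orm3 (0.84) rose. Complement and coagulation had 17 of 36 lower and 1 higher (10 lower without the letter in the model, 22 without replicate B of lipid + itaconate), each change within a log2 value of 0.5, for instance C3 (−0.29) and Cfb (−0.31), with the plasmin inhibitor Serpinf2 above (0.25).

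Macrophage markers moved with these genes. Of 14 tested, 11 fell and 1 rose (median −0.77). Adgre1, which encodes F4/80, had 1.85, 3.81, 3.24 and 2.16 CPM with itaconate alone and 0.826, 1.46, 0.948 and 0.637 CPM with lipid + itaconate (log2 change −1.52 ± 0.211 (SE), adjusted p = 3.83e-05), and the scavenger receptor Marco had 9.10, 15.4, 15.7 and 11.0 CPM with itaconate alone and 4.24, 8.55, 5.11 and 4.53 CPM with lipid + itaconate (log2 change −1.2 ± 0.170 (SE), adjusted p = 4.67e-05). Csf1r (−0.87), C1qa (−0.93), C1qb (−1.13) and Clec4f (−0.62) fell too. Cd68, a lysosomal protein that other cells also make, went the other way with 125, 159.7, 194 and 183 CPM with itaconate alone and 195, 212, 286 and 298 CPM with lipid + itaconate (log2 change 0.58 ± 0.0491 (SE), adjusted p = 4.37e-07), and it made up most of the summed level. All 20 listed markers had counts, and their sum was 227 ± 37.6 CPM with itaconate alone and 281 ± 49.8 CPM with lipid + itaconate (exact permutation test, two-sided p = 0.2). Leaving out Cd68, a choice made after its value was seen, the other 19 summed to 49.6, 71.1, 69.6 and 55.4 CPM in A to D with itaconate alone and to 26.9, 47.0, 29.6 and 30.5 CPM with lipid + itaconate. In bulk RNA fewer macrophages and less RNA per macrophage cannot be told apart, and the part of these cells in the falls of interferon, chemokine and inflammatory genes was not tested.

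Promoter windows of the 2 groups were searched with motifs chosen after the values were seen. The interferon-stimulated response element, written as GAAANNGAAA, was in the window of 19 of the 31 listed interferon genes with a window. A kappa-B site, written as GGGNNNTTCC, was in that of 10 of 23 listed inflammatory ones. Ccl20 and Il6, among these 10, were below the level tested. Over the 8991 tested genes with a window the shares were 3.61% and 7.3% (3.44% and 5.56% of all windows). Shown are Ifit3 (chr19:34583343-34583446, plus strand), Isg15 (chr4:156200845-156200926, minus strand), Cxcl2 (chr5:90903772-90903860, plus strand) and Cxcl10 (chr5:92348954-92349078, minus strand), with the matches in capitals on the strand of the gene.
Ifit3: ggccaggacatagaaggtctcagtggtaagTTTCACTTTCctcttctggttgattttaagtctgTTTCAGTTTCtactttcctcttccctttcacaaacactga
Isg15: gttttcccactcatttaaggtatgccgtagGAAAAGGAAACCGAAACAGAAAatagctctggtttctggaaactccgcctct
Cxcl2: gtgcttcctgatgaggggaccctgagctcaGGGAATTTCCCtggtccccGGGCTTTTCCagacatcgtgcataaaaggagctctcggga
Cxcl10: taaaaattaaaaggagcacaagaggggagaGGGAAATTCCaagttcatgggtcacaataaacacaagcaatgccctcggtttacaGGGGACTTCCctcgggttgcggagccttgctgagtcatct

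**Figure D3:**
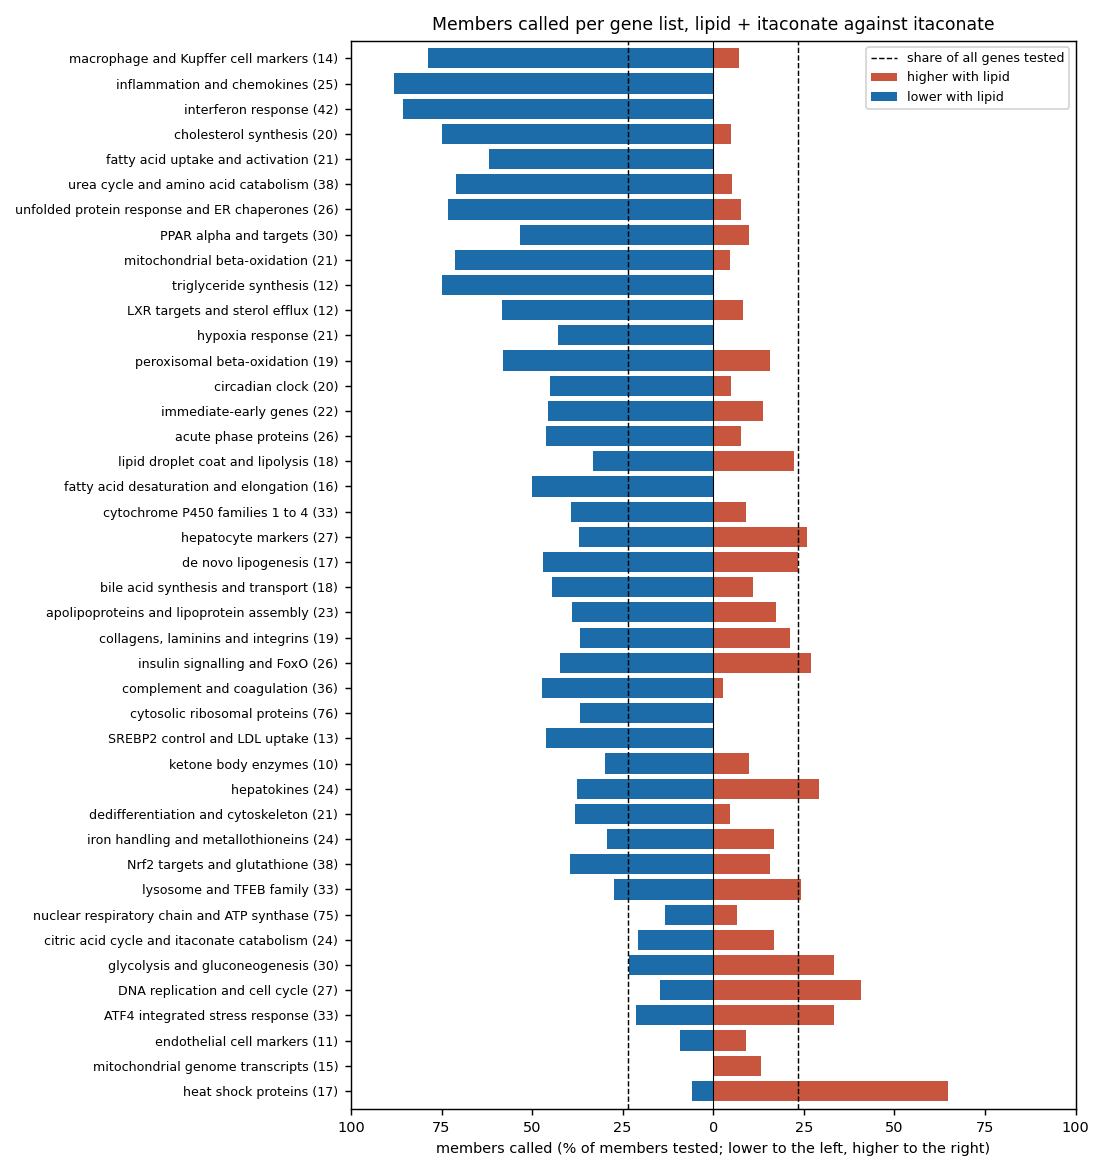
Members called lower (left, blue) and higher (right, red) with lipid under itaconate as % of the members tested. Lists with at least 10 tested (number in brackets) are ordered by median log2 change. Dashed lines give the 23.5% of all genes called in each direction, not matched for expression level. Inflammatory (22 of 25) and interferon genes (36 of 42) reach furthest to the left and heat shock proteins (11 of 17) furthest to the right.

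Stress pathways did not move as 1 block. Chaperones of the endoplasmic reticulum and the unfolded protein response fell, 19 of 26 with 2 higher (median −0.29), although 6 fell without the letter in the model. Hspa5, the chaperone BiP, had 1809.9, 1392, 1807 and 2329 CPM with itaconate alone and 1598, 1135, 1357 and 2022 CPM with lipid + itaconate (log2 change −0.27 ± 0.0523 (SE), adjusted p = 6.19e-04); its groups overlapped, each letter fell, and it was not called without the letter in the model. Herpud1 (−0.58), Selenos (−0.45), Edem1 (−0.44), Calr (−0.41) and Hsp90b1 (−0.41) were lower, whereas Derl2 (0.50) and the sensor Ern1 (0.17) rose. Heat shock proteins of the cytosol and mitochondria rose, 11 of 17 with 1 lower (median 0.20). Besides Hspa1b, Hspa1a went from 19.7 ± 10.9 to 43.3 ± 20.2 CPM (1.15), the small chaperone Hspb1 from 259 ± 31.8 to 396 ± 60.6 CPM (0.61) and Hsph1 from 254 ± 33.9 to 333 ± 41.1 CPM (0.39). Hspa9, the mitochondrial HSP70, fell (−0.23), and Hsf1, the factor behind these genes, was at 0.036 and did not pass. A heat shock element, searched after the values were seen as GAANNTTCNNGAA, was in the windows of Hspd1, Hspe1 and Hsph1 among 11 with a window, against 0.545% of tested genes (0.603% of all windows), and is shown for Hsph1 (chr5:149636266-149636330, minus strand).
Hsph1: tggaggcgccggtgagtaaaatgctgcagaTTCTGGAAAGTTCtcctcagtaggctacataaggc

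Genes of the ATF4 branch of the integrated stress response divided into 11 higher and 7 lower of 33 (median 0.083). The folate enzymes Aldh1l2 (0.58) and Mthfd2 (0.45), asparagine synthetase Asns (0.31), glycyl-tRNA synthetase Gars (0.27), the amino acid transporter chain Slc3a2 (0.27) and the serine phosphatase Psph (0.43) rose with Inhbe, while Atf3 (−0.46), Cbs (−0.39) and Gdf15 (−0.28) fell, and Atf4 (−0.11) and Ddit3 (−0.20) did not pass. The CARE motif of ATF4 and its partners, searched as TGATGNAA, was in the window of 11 of the 29 listed genes with one. The share was 2.72% of tested genes (3.97% of all windows). Fgf21, among these 11, was below the level tested. Atf3 and Herpud1, which fell, held the motif as did Inhbe (chr10:127351992-127352059, minus strand).
Inhbe: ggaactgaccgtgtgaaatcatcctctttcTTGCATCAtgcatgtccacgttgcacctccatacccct

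Targets of Nrf2, a regulator of antioxidant genes, numbered 15 lower and 6 higher of 38 once lipid was added (7 lower without the letter in the model). Abcc2, named above, was among the falls. Gclc, the rate-limiting enzyme of glutathione synthesis, fell from 1056 ± 138 to 756 ± 39.0 CPM (−0.48), Txnrd1 from 918 ± 38.2 to 708 ± 31.5 CPM (−0.37) and Gpx1 was lower (−0.48). Srxn1 (0.35) and the exporter Abcc3 rose, and Hmox1 (−0.062), Gclm (0.0086) and Nqo1 (0.19) did not pass. Hypoxia-response genes were lower in 9 of 21 and higher in none, Hif1a (−0.46), Kdm3a (−0.47) and Ndrg1 (−0.33) among them. Of 9 osmotic stress genes 4 fell and 2 rose, the glutamine carrier Slc38a2 (−0.56), the kinase Sgk1 (−0.65), the taurine carrier Slc6a6 (−0.31) and Nfat5 (−0.40) being the falls and Hspa4l (0.40) among the rises. Immediate-early genes showed 10 falls and 3 rises of 22 (7 and 1 without the letter in the model), with Myc (−0.50), Klf6 (−0.44), Maff (−0.61) and Fos (−0.45) lower and Klf10 higher (0.85).

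Hepatocyte markers moved in both directions. Of 27 genes 10 fell and 7 rose, and without the letter in the model 2 fell and 4 rose. Among those higher were the transcription factors Prox1 (21.9 ± 5.99 to 40.3 ± 5.03 CPM; 0.91), Cebpa (0.37), Foxa2 (0.38), Foxa3 (0.38) and Hnf4a (0.21) and the plasma protein gene Ahsg (0.15). Alb (−0.18), Ttr (−0.20), Cps1 (−0.57), the vitamin E carrier Ttpa (−0.38) and Apob were among those lower. The factors Foxa1 (−0.1), Onecut1 (0.003) and Nr5a2 (−0.13) did not pass. Enzymes of the urea cycle and of amino acid breakdown were lower in 27 of 38 and higher in 2 (median −0.31; 13 lower without the letter in the model). Cps1, which commits ammonia to the urea cycle, had 310.2, 201, 208 and 184 CPM with itaconate alone and 228, 177, 90.0 and 123 CPM with lipid + itaconate (log2 change −0.57 ± 0.144 (SE), adjusted p = 0.00451), and each letter fell although the groups overlapped and the call was lost without the letter in the model. Hal (−0.75), Sds (−0.75), Oat (−0.51), Aldh4a1 (−0.51), Gpt2 (−0.43) and Otc (−0.40) fell with it. The glycine decarboxylase Gldc had 50.01, 37.8, 28.4 and 40.8 CPM with itaconate alone and 75.5, 57.1, 66.8 and 63.5 CPM with lipid + itaconate (log2 change 0.76 ± 0.0831 (SE), adjusted p = 4.26e-06), the opposite direction without overlap, and Nags, which makes the activator of Cps1, rose (0.45).

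Cytochromes P450 of families 1 to 4 were 13 lower and 3 higher of 33 (3 lower and 1 higher without the letter in the model, 20 and 1 without replicate B of lipid + itaconate). Cyp2b10, the classical target of the receptor CAR, had 25.1, 35.1, 17.7 and 33.6 CPM with itaconate alone and 56.8, 72.1, 28.0 and 62.2 CPM with lipid + itaconate (log2 change 0.95 ± 0.0884 (SE), adjusted p = 1.02e-06), and each letter rose. Cyp4a12a (−0.26), Cyp2f2 (−0.30) and Cyp2c50 (−0.23) were lower. Cyp3a11 (−0.17), Cyp1a2 (−0.1) and Cyp2e1 (−0.16) did not pass. Hepatokines gave 9 lower and 7 higher of 24 (4 and 3 without the letter in the model), with Angptl8 (0.60), Angptl6 (0.61) and Dpp4 (0.41) joining Inhbe above and Nrg4 (−0.52) and Gpnmb (−1.06) joining Angptl4 below. Genes of insulin signalling and FoxO were 11 lower and 7 higher of 26 (9 and 4 without the letter in the model), the regulatory subunit Pik3r1 (−0.49) and Irs2 (−0.31) below and the receptor Insr (0.19) and Foxo1 (0.37) above. Of 20 clock genes 9 fell and 1 rose, with Nr1d1 (−0.46), Nr1d2 (−0.51), Rora (−0.41), Cry1 (−0.33), Cry2 (−0.41) and Clock (−0.29) among the falls.

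Replication genes were among the few groups with more rises than falls, 11 against 4 of 27 (8 against 1 without the letter in the model). Mcm2, a subunit of the replicative helicase, had 24.95, 32.2, 21.4 and 25.8 CPM with itaconate alone and 32.5, 34.2, 39.4 and 35.0 CPM with lipid + itaconate (log2 change 0.44 ± 0.0860 (SE), adjusted p = 6.81e-04), Mcm3 changed by 0.28 and Rrm1 by 0.35, and Tk1 (−0.57) and E2f8 (−0.75) fell. Mki67 and Top2a were below the level tested. Integrin and matrix genes were 7 lower and 4 higher of 19 (4 and 4 without the letter in the model), with Itga2 (−0.99), Itgb1 (−0.24) and Loxl2 (−0.83) below and Itga5 (0.36) and Mmp14 (0.49) above. Of 21 genes of dedifferentiation and the cytoskeleton 8 fell and 1 rose (4 and 0 without the letter in the model), osteopontin (Spp1) from 634 ± 206 to 395 ± 123 CPM (−0.68) and Sox9 from 126 ± 19.2 to 97.7 ± 11.6 CPM (−0.37), with Amotl2 (−0.56) and Anxa2 (−0.21). Spp1 and Sox9 are also listed as cholangiocyte markers, of which the 4 tested, Pkhd1 (−0.83) among them, all fell (2 without the letter in the model). Krt19 and Epcam were under 1 CPM, and the list summed to 589 to 1062 CPM with itaconate alone and 366 to 656 CPM with lipid + itaconate (exact permutation test, two-sided p = 0.0571). The part of these cells in the fall was not tested. Cytosolic ribosomal protein genes fell in 28 of 76 and rose in none, with Rpl13a at −0.22 the lowest on the log2 scale (Rpl23a was at −0.21, Rpl10 at −0.20 and Rps2 at −0.20), and 10 were called without the letter in the model. Lysosomal genes (8 higher and 9 lower of 33) and iron genes (4 and 7 of 24) were mixed, with the GTPase Rragd (0.95) and the sialidase Neu1 (0.44) above, and Fnip1 (−0.42), the iron exporter Slc40a1 (−0.37), the transferrin receptor Tfrc (−0.73) and the metalloreductase Steap4 (−1.01) below. Of 11 endothelial markers Stab1 rose (0.37) and Stab2 fell (−0.50), with Egfl7 (0.19) and Ptprb (−0.36) not passing, and of 2 stellate cell markers Reln fell (−0.23) and Tagln (−0.18) did not pass. Without the letter in the model none of these was called.

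Many of these genes also answered lipid without itaconate, in 8 libraries that share none with the comparison above but carry the same letters. Lipid-treated against untreated hepatocytes had 2779 genes higher (23.8%) and 2767 lower (23.7%), 5546 in all. Of the genes called in each comparison 4206 were common, 76.7% of those called with itaconate and 75.8% of those called without, and 4203 had the same direction. The 3 with the other direction, named after their values were seen, were Acot7 (0.14 with itaconate and −0.14 without), Usb1 (0.19 and −0.16) and Zfp708 (−0.66 and 0.74). Across the 11675 genes, which are not independent replicates, the log2 changes correlated with Pearson's r = 0.825 and Spearman's rho = 0.847. The slope of the change with itaconate on that without was 0.747. Error in the change without itaconate lowers such a slope, so it does not measure a damping of the lipid effect. The median absolute log2 change of called genes was 0.323 with itaconate and 0.332 without. Of genes called without itaconate 66.2% changed less with it, and of genes called with itaconate 42.6% did. Genes picked by a call in 1 comparison tend to change less in the other, so neither share measures a damping.

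**Figure D4:**
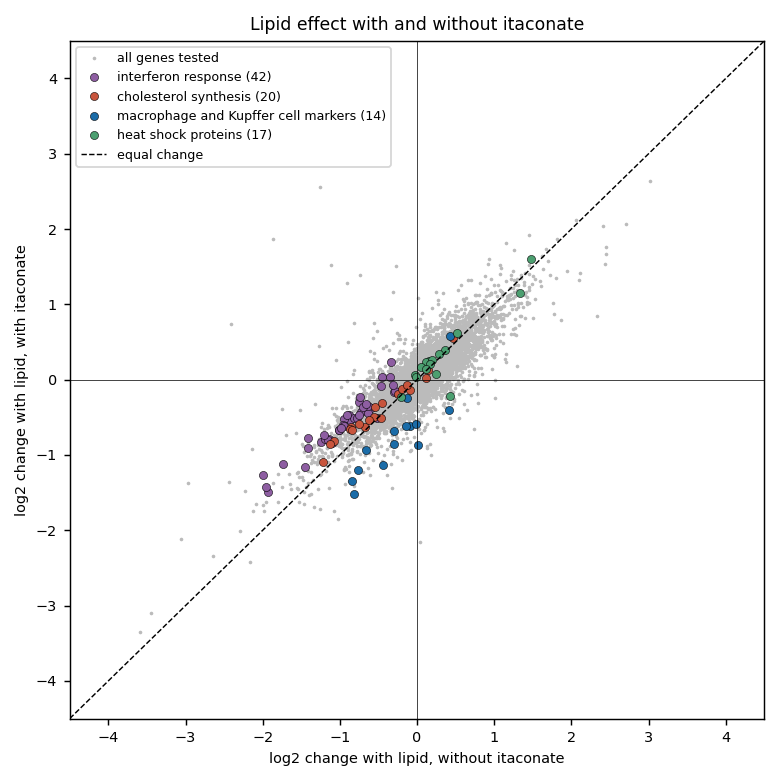
Log2 change with lipid in the presence of itaconate (vertical axis) against that without itaconate (horizontal axis), 1 point per gene, with 4 lists coloured and a dashed line of equal change; 2 genes lie outside the range. The 42 interferon genes lie above the dashed line, and 13 of 14 macrophage markers below it.

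A difference between the lipid effects was called for 1 gene of 11675 (0.00857%) by edgeR's quasi-likelihood interaction test, while 1004 genes (8.60%) had an unadjusted p under 0.05. That gene was Cxcl10. The count of called differences was 0 without the letter in the model, 36 with DESeq2 and 231 without a filter on low counts. Its log2 change with lipid was −1.34 without itaconate and −0.87 with it, a difference of 0.47 ± 0.0653 (SE, adjusted p = 0.0299). The call was lost without the letter (adjusted p = 1) and in 12 of the 16 fits that left out 1 library, where the difference lay between 0.443 and 0.507 in all 16 and the adjusted p reached 0.17. Untreated hepatocytes had 171, 134, 156 and 172 CPM and lipid-treated ones 65.2, 53.2, 58.0 and 74.6 CPM in A to D. These lipid-treated levels overlapped those given above for lipid + itaconate, and every untreated library lay above every library with itaconate alone. Next by p came Arrdc4, an arrestin related to Txnip, which rose by 0.26 with itaconate and 0.73 without (adjusted p of the difference 0.0521), and then Ifit1 (−0.77 and −1.42), the exonuclease Trex1 (−0.62 and −1.05), Pml (−0.40 and −0.81) and coagulation factor F11 (−0.04 and −0.46), each at an adjusted p of the difference of 0.158.

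By list the interferon genes held the most of these low p-values. The change with itaconate was smaller in size than that without for all 42, and 30 of them had an unadjusted interaction p under 0.05, each with the higher value with itaconate, beside 8.60% of all genes, although none of the 42 passed after adjustment. Their median change was −0.51 with itaconate and −0.88 without, in which case all 42 were called lower. Macrophage markers lay the other way, and 13 of 14 changed more in size with itaconate. Their median was −0.77 with itaconate and −0.22 without, 11 and 5 of 14 were called lower, and 7 had an unadjusted interaction p under 0.05, Cd68 being the 1 of these with the higher value with itaconate. Lyz2 (−0.59 with itaconate and −0.0094 without) and Csf1r (−0.87 and 0.006) were among the 7, and none of the markers passed after adjustment. The 19 markers other than Cd68 summed to 52.6 ± 9.54 CPM in untreated and 39.9 ± 6.11 CPM in lipid-treated cells, beside 61.4 ± 10.6 and 33.5 ± 9.10 CPM with itaconate. Cholesterol synthesis (−0.50 and −0.55), mitochondrial beta-oxidation (−0.26 and −0.24) and the PPAR alpha list (−0.27 and −0.30) had medians close to each other. In these 1, 0 and 2 members had an unadjusted interaction p under 0.05. In the ATF4 list 8 of 33 had such a p, all with a lower value with itaconate, Chac1 (0.27 and 0.74) and Mthfd2 (0.45 and 0.74) among them. For the replication genes it was 8 of 27, 6 with a higher value with itaconate, such as Mcm2 (0.44 and 0.094) and Mcm3 (0.28 and −0.02). Neither Txnip (1.53 and 2.44; adjusted p of the difference 0.257) nor Acaca (0.82 and 1.39; 0.257) passed.

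**Figure D5:**
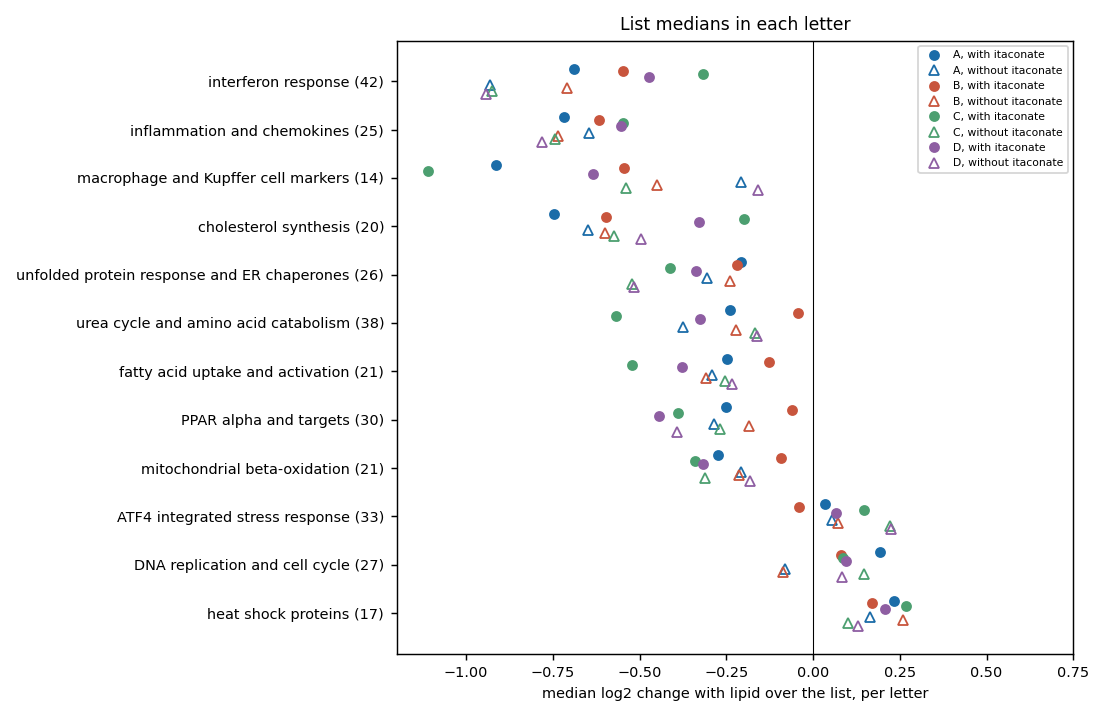
Median log2 change with lipid over the members of 12 lists (number tested in brackets) in each letter, with itaconate (filled circles) and without (open triangles). In the interferon list each letter's fall is smaller with itaconate, and in the macrophage list larger.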

How the data were processed

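Stranded mRNA libraries (RIN over 8, per the study's methods) were sequenced from mouse hepatocytes, 16 in all. Per the labels, the authors used cutadapt 1.18, STAR 2.7.0f, mm10 and RSEM 1.3.1; the deposited expected counts (5.41% not whole) were rounded. Genes averaging 1 CPM or more by library size alone (16 libraries of 22346049 to 35512004 counts) were kept, while the CPM levels printed are TMM-scaled. The kept genes were fitted in R 4.3.3 with edgeR 4.0.16 (quasi-likelihood, treatment and letter as terms, 16 libraries in 1 model). They were called at a Benjamini-Hochberg adjusted p under 0.05. Letters were kept as pairs because same-letter libraries deviated together (r = 0.258 to 0.299 for the 4 pairs compared). Named were the 12 largest called changes in each direction (mean of at least 5 CPM, 1 direction in 4 letters, no clone-named or mitochondrial genes), the 6 lowest interaction p-values, the 4 lowest p-values of each of 46 gene lists, and members whose role is explained; further members were named after their values were seen. Members and lists were chosen with earlier results of these data known. Gene positions are from GENCODE M21 (GRCm38), promoters from RefSeq. Alternatives covered the letter term, normalization, filters, tools (DESeq2 1.42.0, limma 3.58.1) and left-out libraries. Some genes that the naming rule selects are not reported here.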

Additional observations from a re-analysis of the deposited data

Results flagged for a closer look

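For the genes named in the text, 1 library lay far from the other 3 of its group (by Dixon's criterion) in 22 of 600 groups of 4, and chance puts about 1 in 20 groups there. Itaconate replicate A stood apart in Acacb 58.2 CPM (others 76.1 to 78.4), Hspa1a 36.01 CPM (others 14.1 to 14.6), Itga5 45.2 CPM (others 41.8 to 42.1), Klf6 322 CPM (others 295 to 298), Sds 25.9 CPM (others 9.53 to 10.8) and Suclg2 137 CPM (others 144 to 145). Lipid + itaconate replicate B stood apart in Cidec 7.16 CPM (others 4.42 to 4.53), Gm42418 37019 CPM (others 1171 to 1937), Gpam 51.3 CPM (others 67.4 to 69.0), Lars2 4267 CPM (others 151 to 224) and Pdk4 210.2 CPM (others 148 to 158). Lipid + itaconate replicate C stood apart in Amotl2 42.8 CPM (others 36.2 to 36.9), Elovl6 33.6 CPM (others 41.9 to 43.4), Myc 121 CPM (others 148 to 151), Npc2 75.7 CPM (others 84.0 to 85.0) and Sugct 14.1 CPM (others 18.6 to 19.4). Itaconate replicate C stood apart in Apof 119 CPM (others 148 to 151), Elovl6 33.5 CPM (others 41.2 to 42.6), Idh1 182 CPM (others 217 to 224) and Srebf2 99.7 CPM (others 115 to 117). Itaconate replicate B stood apart in Orm3 1.85 CPM (others 2.25 to 2.26). Itaconate replicate D stood apart in Acaca 54.1 CPM (others 48.9 to 49.6).

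The lipid effect on Cxcl10 differed between hepatocytes with and without itaconate by 0.466 on the log2 scale (edgeR's quasi-likelihood interaction test, adjusted p = 0.0299), the fall being smaller with itaconate. Levels with lipid overlapped with and without itaconate, while every library with itaconate alone lay below every untreated library. The call was lost without the letter in the model and in 12 of 16 fits with 1 library left out, and was kept without lipid replicate B, lipid replicate D, itaconate replicate B or lipid + itaconate replicate B.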

How the results depend on the processing

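Without the replicate block (the letter) 3990 genes were called, 3989 of them among the 5483, and 45 of the 257 called genes named here lost their call (Acot7, Ahsg, Alb, Angptl8, Apoe, Arrdc4, Bdh1, Cd36, Cidec, Clec4f, Cps1, Cyp2c50, Cyp4a12a, E2f8, Fabp1, G0s2, Hal, Hilpda, Hnf4a, Hsd17b13, Hsp90b1, Hspa5, Isg15, Ndufs8, Nr1d1, Nr1h4, Nrg4, Pgk1, Psph, Reln, Rpl13a, Scd1, Sds, Serpinf2, Slc10a1, Slc16a6, Slc16a7, Slc25a1, Spp1, Stab1, Stab2, Tk1, Ttr, mt-Nd5, mt-Nd6). Calls numbered 4530 to 5559 when 1 library was left out, and 22 named genes lost theirs at least once (Aacs, Acot7, Ahsg, Alb, Apob, Asns, Cidec, Clec4f, E2f8, G0s2, Hnf4a, Pgk1, Reln, Slc16a7, Slc25a1, Stab1, Stab2, Tk1, Ttr, Zfp708, mt-Nd5, mt-Nd6). The 8 libraries of the comparison alone gave 4782 calls with the letter and 3531 without, of which 1681 were lower. In the reported fit 1023 of the calls were of at least 1.5-fold. Between 5408 and 5649 genes were called under the other normalization, filters and tools. No shared call changed direction under any alternative, and 196 named genes kept theirs under all of them. Interaction calls were 1 in the reported fit, 0 without the letter, 2 with RLE normalization, 231 without a filter on low counts, 2 with filterByExpr, 36 with DESeq2 and 0 to 8 with 1 library left out. They were 0 in 11 of those 16 fits (without any replicate A, without lipid, itaconate or lipid + itaconate replicate C, without untreated, itaconate or lipid + itaconate replicate D, and without untreated replicate B), 8 without lipid replicate B, 7 without lipid + itaconate replicate B, 3 without lipid replicate D, 2 without itaconate replicate B and 1, which was not Cxcl10, without untreated replicate C. Of the list counts, 199 values moved by over 1.5 times and 2009 did not. The difference in summed macrophage markers was 54.8 CPM with Cd68 and −27.9 CPM without it, a setting chosen after its value was seen. The causes were not tested. With 4 libraries a group and a median SE of 0.0727, a change near the size of that error could not be called, and with 4 against 4 an exact permutation test cannot go below 0.0286.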
